A study of Mus musculus with 10 samples.

Results

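The cells described here are *Ptx3*-high *Slc2a1*-high lymphatic endothelial cells (LECs) of the mouse ear skin. A well was kept with at least 50000 reads outside the spike-ins, at least 200 genes and at most 10% mitochondrial reads. It was taken as a LEC when *Prox1*, *Flt4* and *Mmrn1* summed to at least 300 CPM (reads of a gene per 1e6 reads of the well) and to more than the blood vascular genes *Flt1*, *Emcn* and *Podxl*. From these, cells were selected on their own measured values, which were at least 100 CPM of *Ptx3* and at least 100 CPM of *Slc2a1*, at least as much *Lyve1* as *Mmrn2*, under 300 CPM of *Cldn11* and under 500 CPM of 7 cell-cycle genes in sum. They numbered 93 of 1641 LECs and of 3248 wells kept, 84 from mutant and 9 from control mice. *Ptx3*-high cells with less than 100 CPM of *Slc2a1*, called *Slc2a1*-low below, numbered 313 and served as the comparison. The levels of *Ptx3*, *Slc2a1* and *Lyve1* chose the cells and are given as descriptions only.

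Endothelial cells had been sorted by podoplanin and CD31 into 384-well plates and sequenced by Smart-Seq2, a full-length single-cell method. Mutant mice (n = 5, 7 plates) carried Pik3caH1047R;Cdh5-CreERT2 and were Cre+, so that 4-OHT (4-hydroxytamoxifen, 10 mg/ml in acetone on the ear at 3 wk of age) switched on an activated PI3K subunit in endothelium. Both blood and lymphatic endothelium carries the *Cdh5*-driven Cre, and cells were not sorted for recombination. Of the controls, the first was a C57BL/6J mouse without treatment. The second was a Cre- littermate of the Pik3caH1047R;Cdh5-CreERT2 mice and received 4-OHT. All mice were 5 wk old. Plate identifiers of both controls and mutant 5 belong to one number series and those of mutants 1 to 4 to another, and genotype and plate series cannot be fully told apart.

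PTX3 is a secreted pattern recognition protein, and lymphatic capillaries are the blunt-ended vessels that take up fluid and immune cells. *Slc2a1* encodes GLUT1, the main glucose transporter of endothelium, which feeds glycolysis. Glycolysis is the main source of ATP in endothelial cells, and PI3K signalling through AKT and mTOR is known to raise glucose uptake and glycolytic enzymes. The HIF factors drive many of the same genes from the core motifs ACGTG and GCGTG.

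These motifs were looked for, on both strands and counting overlaps, in RefSeq promoters (build GRCm38.p6, 250 bases before to 50 bases after each start), because several of the genes described here are known HIF targets. One of the 2 motifs lay in at least 1 promoter of 18 of 21 glycolysis genes (85.7%) and of 46.7% of all 27025 genes. Counted by promoter, the shares were 78.8% and 43.8%. For 4 genes 1 match is shown in capitals in its strand's 5′ to 3′ sequence, the one nearest to the start among those whose printed window lay wholly before it. Some promoters held further matches, and the one shown for *Pkm* held 1 beyond the window. *Pkm* and *Ldha* each had a further promoter, and the further one of *Pkm* held neither motif. *Adam15* held 1 match, which is not shown. A capital CACGT or CACGC is the motif read on the opposite strand.
Slc2a1, chr4:119108699-119108723, plus strand: cccgccccggACGTGctccccaggc
Pkm, chr9:59657142-59657166, plus strand: ccgatccggtCACGTccgcgccgca
Ldha, chr7:46845760-46845784, plus strand: tgggttcccgCACGTccgctgggct
Pgam1, chr19:41911773-41911797, plus strand: tgccgggtagCACGCgggtaccgct
The promoter windows of *Tpi1*, *Ptx3* and *Cd34* held neither motif. A match describes the letters and says nothing of binding.

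*Slc2a1* was close to an on-or-off measurement among *Ptx3*-high LECs. In the chosen cells its level was 101 CPM at the lowest, 241 CPM at the median and 1580 CPM at the highest. In the 313 *Slc2a1*-low cells the median was 2.84 CPM, 113 cells had no read, and 292 were under 20 CPM. The cells just outside the limit had 85.8, 76.2, 73.6, 69.6 and 61.8 CPM, and those just inside had 101, 107, 113, 120 and 122 CPM. Only 9 of the 93 cells lay between 100 and 150 CPM. *Ptx3* had a median of 369 CPM in the chosen cells and 608 CPM in the *Slc2a1*-low cells. The *Slc2a1*-high cells just inside the *Ptx3* limit had 108, 108, 113, 118 and 129 CPM, and those just outside had 94.1, 90.1, 87.0, 75.5 and 70.9 CPM.

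**Figure D1:**
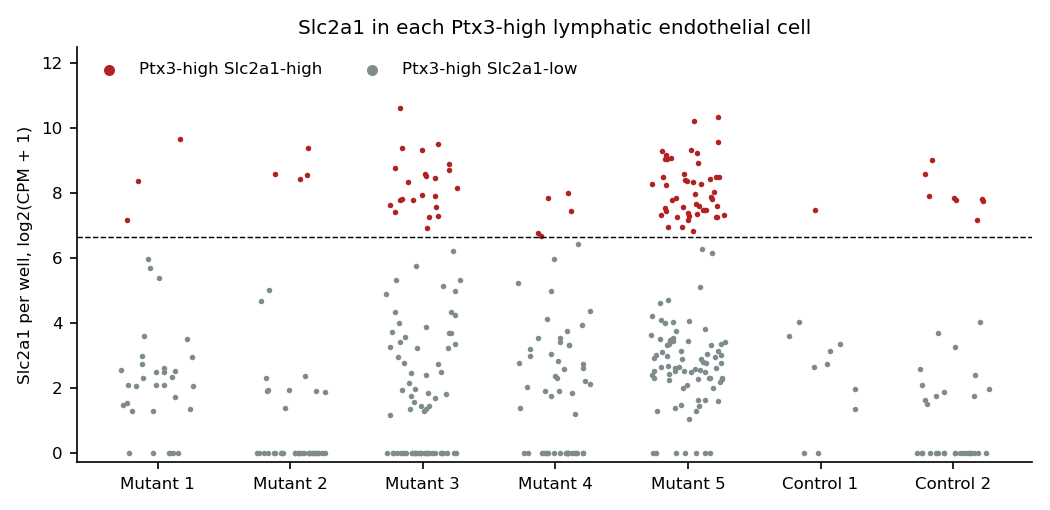
*Slc2a1* level in each *Ptx3*-high LEC by mouse, as log2(CPM + 1), with 1 point per cell and the limit of 100 CPM as a dashed line. Chosen cells (red) lie at 101 CPM or more and 292 of 313 *Slc2a1*-low cells (grey) lie under 20 CPM.

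Genes that the rule did not use are given to describe the cells. *Pdpn* (podoplanin, the sorted surface protein) was read in 83 of 84 cells from mutant mice and in all 9 from control mice. Both classes had passed the same sort and the same lymphatic limit, so *Pdpn* is no test of the label. Summed reads gave 922, 842, 847, 613 and 713 CPM of *Pdpn* in mutants 1 to 5, and 563, 782, 799, 682 and 675 CPM in their *Slc2a1*-low cells. Of the 12 tested genes of lymphatic and general endothelial identity, 5 were above 0 between these classes in mutants 3 to 5 (median log2 fold change -0.08, beside -0.14 for all genes). None of the 12 was higher in all 3 mice and 5 were lower in all 3, beside 10.7% and 16.3% of all genes, and edgeR called 0. Markers of other skin cells were low in most cells. In the chosen cells, the immune list summed per mouse to 2.39–37.5 CPM, the Schwann cell list to 0–43.7 CPM and the fibroblast list to 0.713–52.4 CPM and the mural cell list to 19.1–392 CPM in mutants. The keratinocyte list reached 1544 CPM in mutant 3 and 1402 CPM in control 2, where 2 cells and 1 cell had 1000 CPM or more. The list of blood endothelial markers, several of which lymphatic cells also express, summed to 406–1964 CPM in the chosen and 832–1820 CPM in the *Slc2a1*-low cells. Shares and gene tests were repeated without cells of 1000 CPM or more of a non-endothelial list, and shares also without cells of 300 CPM or more of any other list, blood endothelium included. Beyond that, the part of such RNA in the results was not tested.

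These cells made up a small and uneven share of LECs. They were 3 of 184 LECs in mutant 1 (1.63%), 4 of 187 in mutant 2 (2.14%), 23 of 363 in mutant 3 (6.34%), 5 of 182 in mutant 4 (2.75%) and 49 of 367 in mutant 5 (13.4%). Control 1 had 1 of 183 (0.546%) and control 2 had 8 of 175 (4.57%). Mutants 3 and 5 lay above control 2, mutants 1, 2 and 4 lay between the controls, and the groups overlapped. The mean share was 5.24% ± 4.90 (SD, n = 5) in mutant and 2.56% in control mice (n = 2), a difference of 2.68 percentage points (p = 0.619, two-sided exact permutation over 21 splits, of which the smallest possible p is 0.0952). Without mutant 5 the difference was 0.654, without control 1 it was 0.669 and without control 2 it was 4.69 percentage points. Without cells of 300 CPM or more of another cell type's list, the share was 0% in mutant 1 and both controls and 3.33–9.52% in the other 4 mutants. The difference was then 5.26 percentage points (p = 0.190, exact permutation). That limit left out many cells, since the blood endothelial list alone had a median per chosen cell of 504–2347 CPM in mutants. In controls 1 and 2 this median was 1964 and 1733 CPM. The 0% in controls therefore rests on few cells and is not read as absence. After thinning each cell to 50000 reads the difference was 2.62 percentage points.

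*Slc2a1* at 100 CPM or more was not restricted to *Ptx3*-high LECs. Among *Ptx3*-high LECs the share with high *Slc2a1* was 8.57% in mutant 1, 9.52% in mutant 2, 24.5% in mutant 3, 8.62% in mutant 4 and 38.6% in mutant 5. Among *Ptx3*-low LECs under the same other limits it was 15.8%, 18.3%, 15.7%, 21.2% and 26.1%. The share was thus higher with *Ptx3* in mutants 3 and 5 and lower in mutants 1, 2 and 4. In the controls the shares were 9.09% and 20.5% with, and 9.17% and 18.1% without high *Ptx3*. These differences were not tested. Both mice with 2 plates had a higher share on the first, 16 of 52 *Ptx3*-high LECs (30.8%, 95% Wilson interval 19.9–44.3) against 7 of 42 (16.7%, 8.32–30.6) in mutant 3, and 32 of 68 (47.1%, 35.7–58.8) against 17 of 59 (28.8%, 18.8–41.4) in mutant 5. In both mice the intervals of the plates overlapped, and counting intervals cover counting error only.

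**Figure D2:**
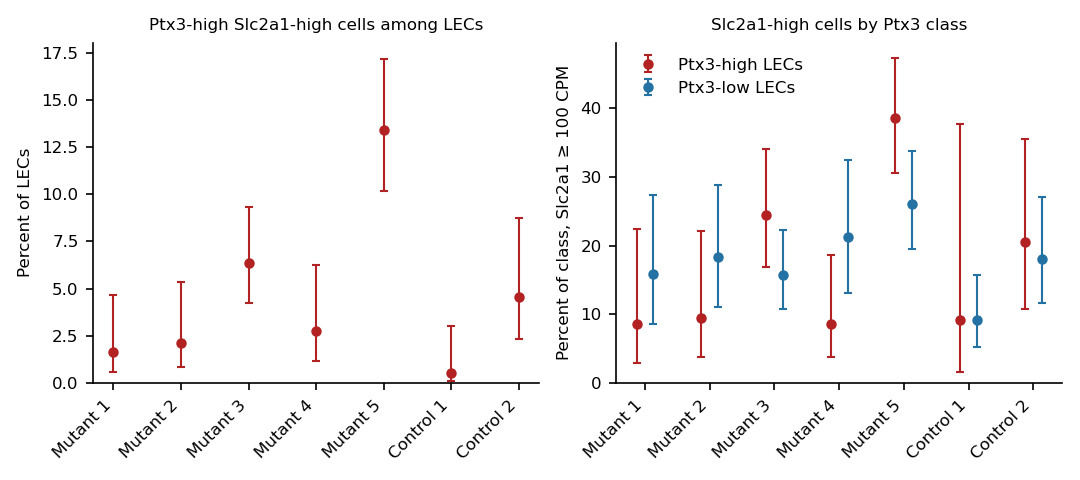
Left, *Ptx3*-high *Slc2a1*-high cells as a percentage of LECs in each mouse; right, cells with at least 100 CPM of *Slc2a1* as a percentage of *Ptx3*-high (red) and *Ptx3*-low (blue) LECs, with 95% Wilson intervals. Mutant 5 is highest at 13.4% of LECs, and in mutants 1, 2 and 4 the blue points lie above the red ones.

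A difference in depth between these cells and the *Slc2a1*-low cells of the same mice was not detected. Median reads per cell were 270096, 378916, 385418, 232628 and 599388 in mutants 1 to 5, against 354964, 315314, 314878, 356391 and 499198 in *Slc2a1*-low cells. They were higher in 3 of 5 mice, with a mean difference of 5140 ± 101792 (SD, n = 5; adjusted p = 1.00, exact sign-flip permutation, smallest possible unadjusted p 0.0625). Genes per cell, the mitochondrial share and reads per spike-in read gave the same adjusted p of 1.00. Thinned to 50000 reads, the median number of genes was 4438, 4072, 4157, 4970 and 4685 in the chosen cells and 4338, 3810, 4249, 4180 and 4292 in *Slc2a1*-low cells, higher in 4 of 5 mice.

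The question of whether these cells differ from their *Slc2a1*-low neighbours was asked within mutant mice, on reads summed per mouse. Mutants 3, 4 and 5 had the 5 cells per sum that were required. Glycolysis genes were mostly a little higher in the *Slc2a1*-high cells, but no gene passed the test across all genes. edgeR called 0 of 14080 genes (0%) at an adjusted p under 0.05, whereas 382 (2.71%) had an unadjusted p under 0.05, 161 higher (1.14%) and 221 lower (1.57%). DESeq2 called 18 (0.128%), 10 higher (0.0710%) and 8 lower (0.0568%). The median log2 fold change of all genes was -0.14, and 41.0% of genes were above 0. The name metabolic was therefore not borne out by a called glycolysis gene under edgeR, and the cells are named by the 2 genes that chose them.

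*Pkm* encodes pyruvate kinase, the last enzyme of glycolysis. It had been given as a marker of these cells from earlier results of the same data, so that its value here and in the counts of glycolysis genes is no independent support. Its level was 269, 1464, 924, 1003 and 1176 CPM in the *Slc2a1*-high cells of mutants 1 to 5, and 600, 850, 645, 598 and 867 CPM in *Slc2a1*-low cells. It was higher in mutants 2 to 5 and lower in mutant 1, whose sum held 3 cells. In mutants 3 to 5 the log2 fold change was 0.59 (SE 0.12, edgeR adjusted p = 0.996, DESeq2 adjusted p = 0.0511). *Tpi1* (triosephosphate isomerase) had 367, 671, 434, 457 and 746 CPM against 443, 416, 286, 317 and 458 CPM. It too was higher in mutants 2 to 5, with a log2 fold change of 0.64 (SE 0.12, edgeR adjusted p = 0.996), and it was the only glycolysis gene called by DESeq2 (adjusted p = 0.0335, with a range over 26 settings of 0.0335–1.000).

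*Ldha*, the lactate dehydrogenase subunit that forms lactate, had 834, 1233, 809, 788 and 1166 CPM in the *Slc2a1*-high cells and 687, 663, 659, 605 and 845 CPM in *Slc2a1*-low cells. It was higher in all 5 mice, with a log2 fold change of 0.41 (SE 0.10) in mutants 3 to 5. *Pgam1* (phosphoglycerate mutase) had 280, 503, 342, 404 and 445 CPM against 311, 299, 297, 325 and 286 CPM, a log2 fold change of 0.41 (SE 0.15). For both genes the edgeR adjusted p was 0.996.

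Of 22 genes in the glycolysis list, 18 were tested, 15 had a log2 fold change above 0 and the median was 0.35, beside -0.14 for all genes. edgeR called 0 of the 18, and 5 were higher at an unadjusted p under 0.05, beside 1.14% of all genes. After TMM scaling 10 of the 18 were higher in all 3 mice, beside 10.7% of all genes, and none was lower in all 3, beside 16.3% of all genes. On plain CPM, 9 were higher in all 3 mice, beside 9.84% of all genes. Those 9 were *Eno1*, *Gapdh*, *Ldha*, *Pfkl*, *Pfkp*, *Pgam1*, *Pkm*, *Slc16a3* and *Tpi1*, which span the pathway from phosphofructokinase to the lactate exporter MCT4. *Hk1*, the hexokinase that starts the pathway, was at -0.29 (SE 0.24) and *Hk2* at 1.25 (SE 1.26) on the log2 scale. With sums of 3 cells allowed, all 5 mutants entered and 6 of 17 tested genes were higher in all 5 after TMM scaling, beside 1.81% of all genes. On plain CPM 3 of them (*Eno1*, *Ldha* and *Pfkp*) were, beside 1.44% of all genes. With sums of 3 cells allowed, the median log2 fold change of all genes was -0.42. The shares of all genes were not matched to the glycolysis list on expression level. In mutant 4 the chosen cells summed to 1600462 reads and the *Slc2a1*-low cells to 20024304. The part of level and of unequal sums in these contrasts was not tested. These lists were chosen with earlier results of these data known.

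Cell by cell, the summed level of the glycolysis list without *Slc2a1* overlapped between the classes. Its median was 4376, 9023, 5218, 5764 and 7740 CPM in the *Slc2a1*-high cells of mutants 1 to 5 and 4958, 5077, 4954, 4403 and 5399 CPM in *Slc2a1*-low cells. The medians were higher in mutants 2 to 5 and lower in mutant 1. In mutant 5 the cells ranged from 3439 to 13145 CPM and the *Slc2a1*-low cells from 2108 to 11577 CPM. In control 2 the medians were 3189 CPM over 8 cells and 3158 CPM over 31 cells, and the single cell of control 1 had 3630 CPM. Within the 49 cells of mutant 5 the sum followed *Slc2a1* weakly (Spearman's rho 0.24), and within the 23 cells of mutant 3 it ran the other way (rho -0.43), both pooled over 2 plates per mouse, and *Slc2a1* went with reads per cell by a rho of 0.21 and -0.41 in the same cells.

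**Figure D3:**
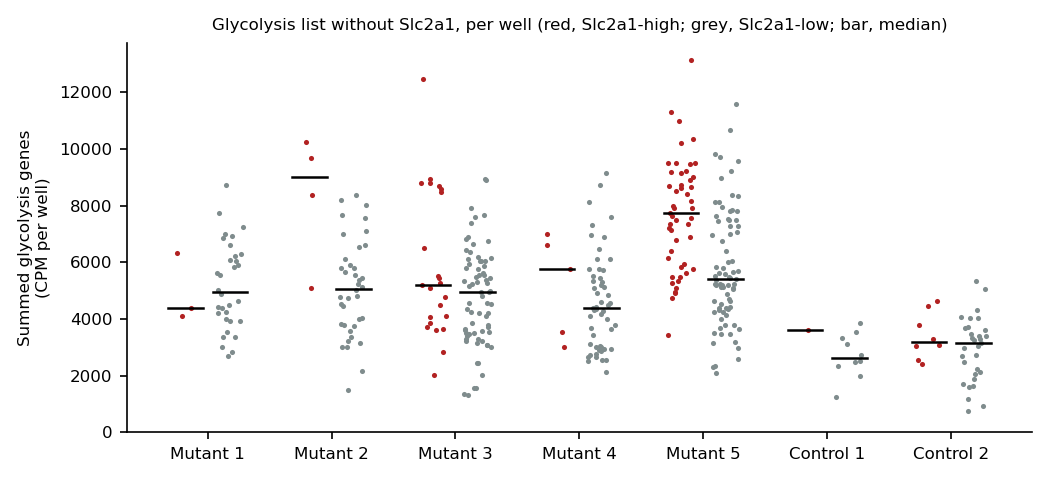
Summed level of the glycolysis list without *Slc2a1* in each *Ptx3*-high LEC, in CPM, by mouse, with *Slc2a1*-high cells in red, *Slc2a1*-low cells in grey and medians as bars. The red median lies above the grey one in mutants 2 to 5 and the cells overlap in every mutant; in control 2 the medians are 3189 and 3158 CPM.

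In the other metabolic lists the estimates lay on both sides of 0. edgeR called 0 genes of each list in this comparison. Among tricarboxylic acid cycle enzymes 7 of 13 were above 0 (median log2 fold change 0.01), among nuclear respiratory chain subunits 16 of 25 (median 0.11), among pentose phosphate enzymes 2 of 7 (median -0.23), and among sterol and fatty acid synthesis genes 5 of 19 (median -0.35). Of the ATF4 and amino acid genes 11 of 18 were above 0 (median 0.39). Of the hypoxia list, which holds HIF subunits and their known targets, 10 of 21 were above 0 (median -0.03). At an unadjusted edgeR p under 0.05, 4 of the 21 were higher and 1 lower, beside 1.14% and 1.57% of all genes. In all 3 mice, 5 of the 21 were higher and 4 lower, beside 10.7% and 16.3% of all genes. *Hif1a* itself was at 0.59 (SE 0.14) and *Vhl*, the factor that marks it for degradation, at -1.11 (SE 0.37). Neither gene was called, and HIF activity was not tested. PI3K, AKT and mTOR components had 6 of 19 above 0 (median -0.26), FOXO-driven genes 3 of 12 (median -0.33), ribosome biogenesis genes 9 of 17 (median 0.03), and cell-cycle genes outside the rule 19 of 28 (median 0.47). Among interferon-stimulated genes 1 of 8 was above 0 (median -0.61), among immediate-early genes 7 of 12 (median 0.06), and among collecting vessel and valve genes 4 of 12 (median -0.26).

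*Cd34* and *Adam15*, like *Pkm*, had been given as markers from earlier results, and the same limit holds for them. *Cd34*, a sialomucin of capillary endothelium and of sprouting cells, was at 50.2, 1081, 757, 1320 and 965 CPM in the *Slc2a1*-high cells of mutants 1 to 5. In *Slc2a1*-low cells it was at 643, 667, 691, 761 and 707 CPM. The level in *Slc2a1*-low cells was thus within 643–761 CPM in every mutant, while that in *Slc2a1*-high cells was lower in mutant 1 and higher in the other 4. The log2 fold change in mutants 3 to 5 was 0.48 (SE 0.15, edgeR adjusted p = 0.996), and with all 5 mutants in the fit it was -0.05 (edgeR adjusted p = 0.997). The 3 cells of mutant 1 had 8.01, 22.2 and 172 CPM.

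*Adam15*, a membrane metalloproteinase, had 168, 755, 782, 860 and 857 CPM in the *Slc2a1*-high cells and 439, 538, 514, 439 and 732 CPM in *Slc2a1*-low cells of mutants 1 to 5. It was lower in mutant 1 and higher in the others, with a log2 fold change of 0.63 in mutants 3 to 5 (SE 0.17, edgeR adjusted p = 0.996). The log2 fold change was 0.16 against *Slc2a1*-low cells matched on reads and 0.27 with all 5 mutants in the fit. At 100 CPM or more, *Adam15* was found in 76 of 84 *Slc2a1*-high cells of mutants (90.5%) and in 189 of 272 *Slc2a1*-low cells (69.5%). The same counts for *Cd34* were 66 of 84 (78.6%) and 190 of 272 (69.9%). Mutant 5 gave 49 of the 84 and 78 of the 272 cells, so pooled shares also carry the mix of mice. The counts are given next for mutants 1 to 5 in order. *Cd34* had 1 of 3, 2 of 4, 14 of 23, 5 of 5 and 44 of 49 *Slc2a1*-high cells. It had 20 of 32, 20 of 38, 50 of 71, 38 of 53 and 62 of 78 *Slc2a1*-low cells. *Adam15* had 2 of 3, 3 of 4, 19 of 23, 3 of 5 and 49 of 49, against 23 of 32, 25 of 38, 47 of 71, 31 of 53 and 63 of 78. Pooled over the mutants, each transcript was thus found in most *Ptx3*-high LECs in either class of *Slc2a1*.

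**Figure D4:**
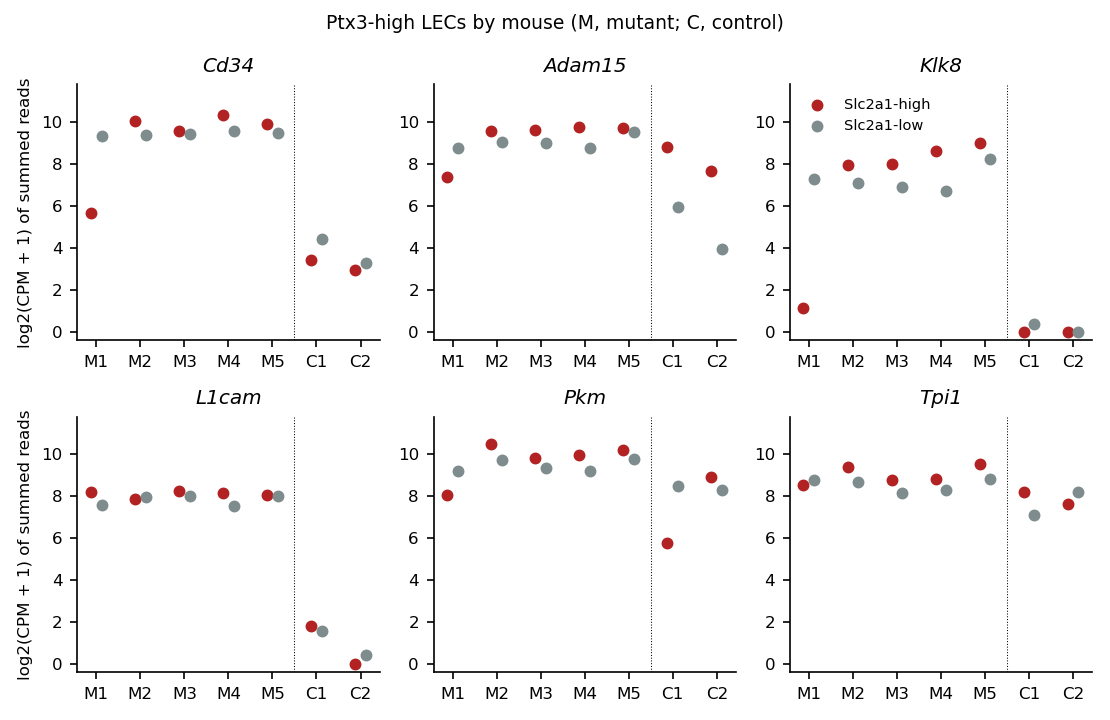
Level of 6 genes in *Ptx3*-high LECs of each mouse, as log2(CPM + 1) of summed reads, for *Slc2a1*-high (red) and *Slc2a1*-low (grey) cells. *Cd34*, *Klk8* and *L1cam* are at 0–20.5 CPM in both controls and at 100 CPM or more in both classes of mutants 2 to 5. The red points of mutant 1 stand for 3 cells and those of control 1 for 1 cell.

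The 18 genes called by DESeq2 alone were examined after their values had been seen. *Selenop*, a secreted selenium carrier, was at 492, 1049, 668, 609 and 390 CPM in the *Slc2a1*-high cells and at 924, 1126, 952, 1062 and 632 CPM in *Slc2a1*-low cells of mutants 1 to 5. It was lower in all 5 mice, as were 7.82% of all genes, with a log2 fold change of -0.65 (SE 0.11) and adjusted p of 0.0260 by DESeq2 and 0.996 by edgeR. It was also lower in both controls, at 3016 against 3069 CPM and 1436 against 1985 CPM. *Chd4*, a chromatin remodeller, had 67.0, 56.9 and 80.1 CPM against 140, 165 and 167 CPM in mutants 3 to 5 but was not lower in mutant 1 or 2 (223 against 160 and 159 against 151 CPM).

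*Klk8*, a secreted serine protease, had 260, 390 and 521 CPM against 119, 104 and 302 CPM in mutants 3 to 5 and 1.19 against 154 CPM in mutant 1. Its log2 fold change of 1.29 (SE 0.25) was called by DESeq2 (adjusted p = 0.0129) and not by edgeR (adjusted p = 0.996). It was 0.48 with all 5 mutants in the fit, 0.49 against *Slc2a1*-low cells matched on reads and 0.06 with a *Slc2a1* limit of 50 CPM. *Axl*, a receptor tyrosine kinase, was at 41.2, 36.2 and 22.8 CPM against 2.69, 2.95 and 2.84 CPM, but was read in 15 of 84 *Slc2a1*-high cells and 30 of 272 *Slc2a1*-low cells. Its log2 fold change of 3.54 (SE 0.83) was 1.76 without cells of 1000 CPM or more of non-endothelial markers and 1.29 on first plates. *Lat2*, an adaptor of immune receptors, was read in 15 of 84 and 18 of 272 cells, and *F3* (tissue factor) in 9 of 84 and 5 of 272. The *F3* level was 157 CPM in mutant 4, with 5 cells, and 2.93 and 8.98 CPM in mutants 3 and 5. *Inpp5a*, an inositol phosphatase, was higher in all 5 mutants, at 65.7, 101, 30.0, 109 and 32.2 CPM against 32.0, 39.6, 8.35, 15.5 and 9.77 CPM, and was read in 38 of 84 and 73 of 272 cells. *Icam1*, the leukocyte adhesion molecule, had 16.3, 3.12 and 9.60 CPM against 106, 89.1 and 33.3 CPM in mutants 3 to 5 but 176 against 166 CPM in mutant 1. *Slc12a7*, a potassium chloride cotransporter, had 0–1.64 CPM against 6.10–59.9 CPM over the 5 mutants. Every one of these genes had an edgeR adjusted p of 0.996, and no alternative but DESeq2 called any of them. Over all settings the log2 fold change ranged from 0.01 to 4.53 for *Lat2*, from 1.26 to 4.45 for *Inpp5a*, from -1.28 to -0.32 for *Chd4*, from -3.78 to -0.47 for *Icam1* and from -4.84 to -1.79 for *Slc12a7*.

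Whether *Slc2a1* goes with other genes when *Ptx3* is high than when it is low was asked with an interaction term in the same 3 mice. edgeR called 0 of 15672 genes (0%), 673 (4.29%) had an unadjusted p under 0.05, and DESeq2 called 78 (0.498%), 39 in each direction (0.249%). *Cd34* was at -1.08 (SE 0.39), *Adam15* at -0.88 (SE 0.48) and *Klk8* at -1.43 (SE 0.70) on the log2 scale, all with an edgeR adjusted p of 1.00. For the glycolysis list 9 of 20 interaction terms were above 0 (median -0.09, beside -0.05 for all genes, of which 47.5% were above 0). A difference between the *Ptx3* classes in what accompanies *Slc2a1* was thus not detected in these 3 mice.

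Against control mice, the chosen cells of mutants stood apart by a few transcripts, 4 of which were at or under 20 CPM in both controls. Since control 1 held 1 such cell and control 2 held 8, the control sums were taken over all *Ptx3*-high LECs, 11 and 39 cells, most of them *Slc2a1*-low. edgeR called 7 of 13491 genes (0.0519%), all higher in mutants, and DESeq2 called 533 (3.95%), 316 higher (2.34%) and 217 lower (1.61%). An unadjusted edgeR p under 0.05 was reached by 1310 genes (9.71%), 734 higher (5.44%) and 576 lower (4.27%). The 5 with established names were *Klk8*, *Ccdc184*, *L1cam*, *Cd34* and *Adam15*. In this comparison 13.7% of all genes were higher and 14.7% lower without overlap of the groups of mice. Genotype, *Slc2a1* class and plate series cannot be fully told apart in it. Of the mutants only mutant 5 shared the plate number series of the controls, and control 1 was also untreated. With mutant 4 (5 cells in its sum) left out, 0 genes were called. Without mutant 5, mutant 3 or control 2 the number was 2, 4 and 14, and over 20 settings the edgeR and DESeq2 adjusted p of *Cd34* ranged from 1.68e-43 to 0.226 and was under 0.05 in 15.

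*Klk8* had 260, 390 and 521 CPM in mutants 3, 4 and 5, and a single read in the 50 control cells, in control 1. The ratio of the pooled levels was 8487 with a counting interval of 1523–335253 (edgeR adjusted p = 0.0121). With 3 control reads in place of 1 it would be 2829. Counting intervals do not cover the spread between mice. *L1cam*, a neural cell adhesion molecule also found on lymphatic endothelium, had 304, 286 and 263 CPM in the mutants and 2.07 and 0.276 CPM in the controls, a ratio of 416 with a counting interval of 238–806 (edgeR adjusted p = 0.0381). *Ccdc184* had 101, 322 and 133 CPM in the mutants and 3 reads in the controls, a ratio of 816 with a counting interval of 279–3960 (edgeR adjusted p = 0.0381). All 3 were also read in *Slc2a1*-low cells of the mutants. *L1cam* was at 190–260 CPM and *Ccdc184* at 102–147 CPM in the *Slc2a1*-low cells of the 5 mutants, and *Klk8* at 104–302 CPM.

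*Cd34* was at 757, 1320 and 965 CPM in mutants 3 to 5 and at 19.4 and 8.28 CPM in the control sums, a log2 fold change of 6.17 (SE 0.57, edgeR adjusted p = 0.0196). The 9 *Slc2a1*-high cells of the controls had 0–20.4 CPM. At 100 CPM or more it was found in 0 of 9, which allows a share of up to 33.3% of such cells, and in 0 of 50 *Ptx3*-high control cells in all, which allows up to 6.00%. These limits cover the counting of these cells only, which came from 2 mice, and set no limit for control mice in general. *Adam15* was at 782, 860 and 857 CPM against 103 and 61.0 CPM, a log2 fold change of 3.30 (SE 0.37, edgeR adjusted p = 0.0381). Unlike *Cd34*, it was present in *Slc2a1*-high cells of the controls, with 453 and 204 CPM against 61.6 and 14.4 CPM in *Slc2a1*-low cells. At 100 CPM or more it was found in 5 of 9 and 2 of 41 control cells, a difference that was not tested.

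Most glycolysis genes lay above their level in the *Ptx3*-high LECs of controls, with no call by edgeR. Of 18 tested, 17 were above 0 with a median log2 fold change of 1.28, beside -0.01 for all genes, of which 49.5% were above 0. DESeq2 called 6 of the 18, all higher, beside 2.34% of all genes called higher. *Pkm* had 924, 1003 and 1176 CPM against 326 and 355 CPM, a log2 fold change of 1.58 (SE 0.24, edgeR adjusted p = 0.0916, DESeq2 adjusted p = 1.87e-04, with a range over settings of 1.14e-04–0.956). *Tpi1* was at 1.35 (SE 0.36, edgeR adjusted p = 0.278) and *Ldha* at 1.11 (SE 0.27, edgeR adjusted p = 0.242). The *Slc2a1*-low cells of the same mutants had 645, 598 and 867 CPM of *Pkm*, between the *Slc2a1*-high cells and the controls. The 2 comparisons share the mutant sums.

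Further lists in the comparison with controls had 1 or no edgeR call outside *Cd34* and *Adam15*. Of the genes the study names as inflammatory 9 of 9 were above 0 (median 1.23), with *L1cam* called. The study chose these genes on the same samples, so their direction is no independent evidence. Of the list of chemokine and adhesion genes 4 of 11 were above 0 (median -0.66). *Ackr2*, a scavenging chemokine receptor, was at 1.92 (SE 0.31, edgeR adjusted p = 0.0975) and *Mmp14*, a membrane matrix proteinase, at 1.23 (SE 0.28, edgeR adjusted p = 0.218). *Angpt2*, a ligand of the TIE2 receptor, had 6.98, 2.50 and 43.4 CPM against 538 and 226 CPM in the controls, at -4.47 (SE 1.00, edgeR adjusted p = 0.211). Of the hypoxia list 14 of 19 were above 0 (median 1.02), with *Hif1a* at 2.25 (SE 0.41, edgeR adjusted p = 0.142). Immediate-early genes were below 0 in 9 of 12 (median -1.72), and *Fos* had 22.4, 221 and 244 CPM against 945 and 825 CPM. All 6 tested fibroblast markers were below 0, their list summing to 6.65, 2.50 and 52.4 CPM in mutants 3, 4 and 5 and to 1084 and 272 CPM in the controls. Blood endothelial markers were below 0 in 7 of 8 (median -1.26), their list summing to 949, 406 and 969 CPM in mutants 3, 4 and 5 and to 1835 and 1305 CPM in the controls. Mural cell markers were below 0 in 6 of 6 (median -3.00), summing to 59.6, 35.6 and 75.3 CPM and to 106 and 333 CPM. The immediate-early, fibroblast, blood endothelial and mural values all move with genotype, and their part in the other differences was not tested beyond the fit without cells of 1000 CPM or more of a non-endothelial list, which called 8 genes.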

How the data were processed

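Single-cell counts of 9 plates (3456 wells) were used, 7 of mutant and 2 of control mice. Another control of the study was not analysed here. Per the methods and the labels, the authors aligned reads with TopHat2 2.1.1 to GRCm38 with the chicken *PIK3CA* sequence, removed duplicates with SAMtools 0.1.18 and counted reads per gene with featureCounts. The deposited values are raw read counts. The annotation version is not given in the sources used here. GENCODE vM21 gave symbols and positions for 46005 of 46517 genes. The transgene has no row in the tables. No molecular barcodes were used, so reads are not independent molecules and intervals cover counting error only. No doublet caller was run, and no wells held identical counts.

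CPM are per 1e6 reads outside the spike-ins. Reads were summed per mouse and class over at least 5 wells, after which sums of the chosen cells held 1600462–32391143 reads in mutants 3 to 5. Those of the *Slc2a1*-low cells held 20024304–41971862 reads in the same mice. The main test was edgeR's quasi-likelihood F test (version 4.0.16 in R 4.3.3, genes kept by filterByExpr, TMM scaling, mouse as a block within mutants) and the alternative DESeq2 1.42.0, with Benjamini-Hochberg adjustment over all genes. Calls were made at adjusted p under 0.05. Genes of the rule were left out of the tests. Levels in the text are plain CPM of sums, and fold changes are after TMM scaling. Classes of 1 mouse are paired because they come from the same animal, and their deviations from the class means correlated by 0.06, 0.08 and 0.16 across genes. Shares and well measures were compared by exact permutation over mice in Python 3.11.15 (scipy 1.17.1). The fits were run on simulated sums whose set changes were larger than those of *Pkm*, *Tpi1*, *Ldha* and *Pgam1* within mutants. The simulation therefore does not show whether changes of that size would have been called. p-values measure the spread between these mice.

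Genes named are those of the lists, given by counts, and called genes with the largest fold change, at most 15 per direction within mutants and 5 otherwise. Called genes also needed a mean log2 CPM at or above 4 and the same direction in every mouse or groups without overlap. Predicted genes were not named. Within mutants edgeR called no gene, so genes called by DESeq2 alone were named there. These were not held to the same direction in all 5 mutants. The cells, lists and tests were chosen with earlier results of these data known. Alternatives were DESeq2, its size factors in edgeR, no expression filter, thinned wells, wells with at least 100000 reads, *Slc2a1* limits of 50 and 200 CPM, a *Ptx3* limit of 200 CPM, cells matched on reads, a gap between the classes, first plates, other cell types left out, each mouse left out and no block. Sums of at least 3 wells and the limit of 1000 CPM of non-endothelial markers were chosen after the data were seen.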

Additional observations from a re-analysis of the deposited data

Results flagged for a closer look

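Of 44 groups of 5 mutant mice examined, 6 had a mouse that stood apart by Dixon's criterion, which chance gives in about 1 of 20 groups. Among the *Slc2a1*-high cells, *Adam15* was low in mutant 1 (168 CPM, 3 cells), *Icam1* was high in mutant 1 (176 CPM) and *F3* was high in mutant 4 (157 CPM, 5 cells). Among the *Slc2a1*-low cells, *Klk8* was high in mutant 5 (302 CPM) and *Slc12a7* in mutant 3 (59.9 CPM). The median reads per *Slc2a1*-low cell were highest in mutant 5 (499198), whose 2 plates had identifiers of the same number series as the controls.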

How the results depend on the processing

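Only 3 mutants had 5 or more of the chosen cells, and the sum of mutant 4 held 5 cells, which limits every test of genes. Within mutants edgeR called 0 genes under every alternative that was run, the replicate block left out included (0 genes in both comparisons), and DESeq2 called 18 genes, and 78 for the interaction. Against controls the 7 calls became 533 with DESeq2, 388 with no expression filter, 49 with sums of thinned wells, 38 with the rule applied to thinned wells, 0 with at least 100000 reads per well, 1 with a *Slc2a1* limit of 200 CPM, 0 with a limit of 50 CPM and 1 with sums of at least 3 wells, and ranged from 0 to 14 when a mouse was left out. With sums of at least 3 wells and the replicate number as a block 21 genes were called. The numbers are only names there, since mutants and controls of one number are different mice, and their deviations correlated by 0.03 and -0.01. *Cd34* within mutants turned to -0.61 with a *Slc2a1* limit of 50 CPM, which brought mutant 1 into the fit, and to -0.05 with sums of at least 3 wells, and, with a mouse also left out, to -0.29 without mutant 2, -0.10 without mutant 3, -0.31 without mutant 4 and -0.18 without mutant 5, but 0.54 without mutant 1. Reads per well differed by -18622 to 37366, genes per well by -24.3 to 307.6, and the mitochondrial share by -0.0956 to 0.0745 percentage points when a mouse was left out, and the mitochondrial share by -0.0627 with means in place of medians. The cause of these changes was not tested. The difference in the share of LECs kept its direction under every alternative run, at 1.38 to 5.26 percentage points, or 0.654 to 4.69 with a mouse left out. Of the values of named genes, 542 kept direction and call, 34 lost and 18 gained a call. A comparison with the *Slc2a1*-high cells of controls alone was not run, since control 1 had 1, and the fits without wells of 300 CPM of any other marker list, blood endothelium included, could not be made for lack of wells.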
